A study of Drosophila melanogaster with 4 samples.

Results

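The X chromosome of Drosophila melanogaster carried H3K27me1 clusters from its telomere end to its centromere-proximal part, in stretches that alternated with gaps, and the 2 ChIP replicates differed there in how much they listed. The regions described here are the clusters of significant enrichment whose midpoint lies in the first 20.4 Mb of X in FlyBase release 5 coordinates. This leaves out the centromere end of the 22422827 bp sequence. They number 1037 of 6501 clusters in replicate 1, 863 of 6601 in replicate 2, and 1746 of 9662 in the authors' list for the replicate set. They were chosen by position alone, with no use of score or width.

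The libraries are 2 H3K27me1 ChIP replicates and 2 Input libraries, made from nuclei of adult heads of the wild-type strain Oregon-R. The flies were mixed adults held in population cages on a 22-day cycle, and chromatin was fixed with formaldehyde, sonicated and incubated with a Millipore antibody for 15 hours. All libraries share strain, stage and tissue, so no second condition was compared, and the labels give neither the sex of the flies nor whether the replicates came from separate collections. Whole heads hold neurons, glia, eye, fat body and other cells, and the lists cannot tell them apart. Each ChIP replicate was called against the Input of the same number, the Input libraries themselves have no list among those analysed, and the read depth behind the clusters is unknown.

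H3K27me1 is the form of histone H3 with a monomethyl group on lysine 27. In flies the enzyme E(z), the catalytic subunit of Polycomb repressive complex 2, methylates this lysine. Its di- and trimethylated forms are known from silenced chromatin, and the trimethylated form marks Polycomb targets. The fly X is also the chromosome on which the male-specific lethal complex acts in males, where it acetylates histone H4 at lysine 16 along active genes.

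Arms 2L, 3L and 3R served as background, each without the 2 Mb at its centromere end, which gives 69.5 Mb against 20.4 Mb of X. They held 3737 clusters in replicate 1, 3951 in replicate 2 and 5480 in the replicate-set list. X and the background arms come from the same 2 ChIP libraries, and an exact two-sided permutation test over 2 such pairs cannot go below 0.5, so no test across libraries was run. Clusters and windows of a library are not replicates of each other. Values are therefore given per replicate, and a difference is set against the spread between the replicates.

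X was less covered than the background arms in both replicates. The clusters covered 3.16 Mb of X in replicate 1 and 2.41 Mb in replicate 2, which is 15.5% and 11.8% of the stretch (13.7% ± 2.59, SD, n = 2). The background arms were covered to 20.8% in replicate 1 and 20.6% in replicate 2 (20.7% ± 0.135, SD, n = 2). By arm the background ran from 18.7% on 2L in replicate 2 to 22.6% on 3L in replicate 1, so no X value reached the range of the background. The ratio of X to background was 0.746 in replicate 1 and 0.575 in replicate 2 (0.660 ± 0.121, SD, n = 2). In the replicate-set list the shares were closer, at 27.8% of X against 30.9% of the background, a ratio of 0.90. The sex of the flies and the read depth are not given, so the number of X copies beside the background arms is unknown. The lower coverage therefore cannot be read as less H3K27me1 on X, which was not tested.

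Both the number and the width of the clusters entered this difference. Replicate 1 held 50.8 clusters per Mb of X against 53.8 on the background arms, and replicate 2 held 42.3 against 56.9. By arm, the lowest background value was that of 2L, at 50.5 in replicate 1, just under X, and 53.2 in replicate 2. The number on X thus lay below the range of the background arms in replicate 2 only. The median X cluster was 2218 bp wide in replicate 1 and 2059 bp in replicate 2, against 2827 bp and 2649 bp on the background arms. The median widths on X were thus 0.785 and 0.777 times those of the background. The narrowest X cluster measured 1301 bp and 1304 bp, close to the 1301 bp minimum on the other arms. The replicate-set list was denser on X, with 85.6 clusters per Mb against 78.9 on the background, and again narrower, with a median of 2070 bp against 2553 bp. Its narrowest cluster measured 1001 bp on X and on the background, so its floor is lower than that of the replicates.

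Along X the coverage of 100 kb windows went up and down over short distances. Replicate 1 ran from 0% to 57.4% with a median of 13.9%, and replicate 2 from 0% to 50.5% with a median of 10.5%. A window resembled its direct neighbour only weakly, with Pearson's r of 0.220 in replicate 1 and 0.230 in replicate 2 at a distance of 100 kb. At 200 kb r was 0.03 in replicate 1 and -0.00059 in replicate 2. At 400 kb it was -0.147 and -0.142. On the background arms r at 100 kb was 0.182 and 0.187, and at 200 kb 0.0952 and 0.103. These are descriptions across windows, which share a library and lie side by side.

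**Figure D1:**
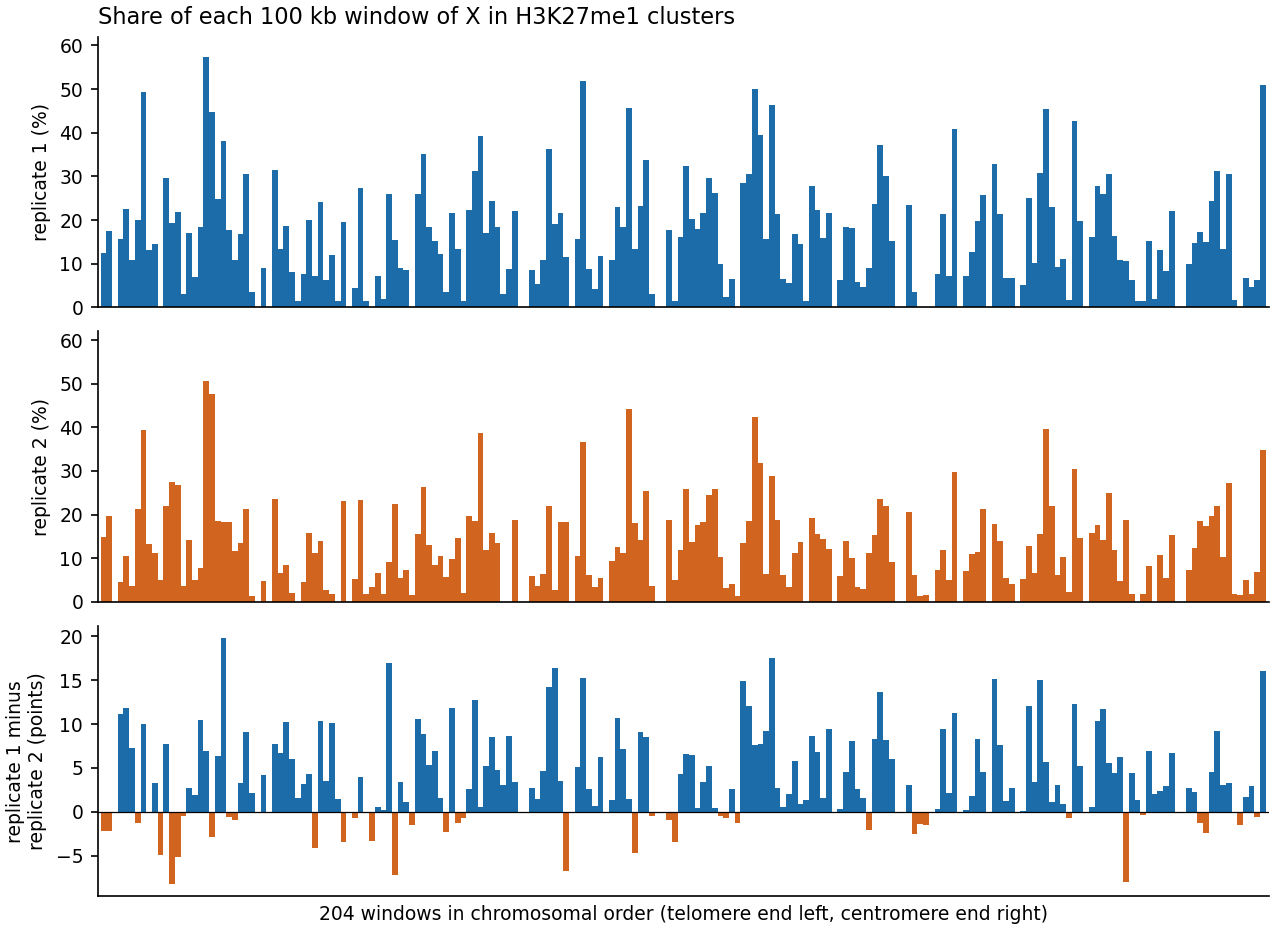
Share of each 100 kb window along X lying in H3K27me1 clusters (%), for replicate 1 (top) and replicate 2 (middle), and their difference in percentage points (bottom). Windows run in chromosomal order. Mostly the same windows stand high in both replicates, the highest at 57.4% and 50.5%, and most differences lie above 0.

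The large parts of X differed little. Cut into 3 equal parts from the telomere end, X was covered to 15.8%, 16.3% and 14.4% in replicate 1. Replicate 2 covered the same parts to 12.5%, 12.1% and 10.8%. The number of clusters in them was 359, 357 and 321 in replicate 1, and 303, 296 and 264 in replicate 2. Blocks of 1 Mb differed more. The block 18000001 to 19000000 was the lowest in both replicates, at 6.99% and 4.35%. Replicate 1 was highest at 11000001 to 12000000 (24.5%), and replicate 2 at 1000001 to 2000000 (20.99%).

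The most covered window, 1800001 to 1900000, lay in clusters over 57.4% of its length in replicate 1 and 50.5% in replicate 2 (53.9% ± 4.86, SD, n = 2). It held 10 clusters in replicate 1 and 12 in replicate 2. The window beside it, 1900001 to 2000000, came second, at 44.8% in replicate 1 and 47.7% in replicate 2 (46.2% ± 2.07). In the replicate-set list this pair of neighbours was covered to 67.7%, below the 74.4% of the pair 11400001 to 11600000.

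The third, 11400001 to 11500000, reached 49.9% in replicate 1 and 42.3% in replicate 2 (46.1% ± 5.40). The fourth, 9200001 to 9300000, had the closest agreement of these, at 45.7% and 44.3% (45.0% ± 1.04). The fifth, 700001 to 800000, stood at 49.4% and 39.4% (44.4% ± 7.06), with 17 clusters in replicate 1 and 12 in replicate 2. Just below the fifth lay the last window, which begins at 20300001 (42.8%), and 16500001 to 16600000 (42.5%), both in the proximal part of X.

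High windows were fewer on X. Coverage above 30% in both replicates was found in 11 X windows (5.39% of them), against 25.2% of the background windows. Counted per replicate, with those 11 included, replicate 1 had 29 X windows above 30% and replicate 2 had 11. Windows with at least 20% in both replicates numbered 33. They formed 27 separate stretches, 6 of them 2 windows long and none longer, among them 600001 to 800000 and 11400001 to 11600000.

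Windows without any cluster were about as frequent on X as elsewhere. Neither replicate listed a cluster in 20 X windows (9.80% of them), against 9.65% of the background windows. Each replicate had 27 empty windows, 7 of them empty in that replicate alone. Of the 20 windows empty in both replicates, 12 were also empty in the replicate-set list. Stretches under 5% in both replicates reached 3 windows in length, at 9600001 to 9900000 and at 14300001 to 14600000.

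Stretches of at least 50 kb with no cluster in any of the 3 lists numbered 52 on X, with a median length of 93.7 kb, and took up 5.36 Mb or 26.3% of the stretch. The background arms had 215, with a median of 76.5 kb, over 30.7% of their length. By arm the background share ran from 26.5% on 3L to 33.6% on 2L, so X lay just under its lower end. On X 22 of these stretches were 100 kb or longer. Within single lists, gaps of at least 50 kb took up 43.6% of X in replicate 1, against 44.7% of the background. In replicate 2 they took up 49.7%, against 43.6%. By arm the background ran from 40.5% on 3L to 49.2% on 2L in replicate 1, and from 38.2% to 47.7% in replicate 2. X lay inside this range in replicate 1 and above it in replicate 2.

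The longest empty stretch of X ran from 7237501 to 7520299 (283 kb). Clusters of both replicates ended 436 bp and 438 bp before it, and on the other side replicate 1 resumed after 190 bp and replicate 2 after 58903 bp. The next, 9677369 to 9904017 (227 kb), was bounded closely on both sides, with the nearest cluster at most 828 bp away in either replicate. On its far side lay the cluster at 9904104 to 9908820, the fifth by mean score among clusters that met 1-to-1.

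The third stretch ran from 13892853 to 14108805 (216 kb), and the fourth from 14490367 to 14682405 (192 kb). In replicate 1 the nearest cluster before the fourth stretch lay 222333 bp away, while replicate 2 had clusters 8082 bp from it. The fifth, 15992309 to 16160831, measured 169 kb. Whether reads can be placed uniquely in these stretches was not tested.

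Clusters on X stood farther apart. The median gap between neighbours was 5358.5 bp in replicate 1 and 7348.5 bp in replicate 2, against 3396.5 bp and 3312.5 bp on the background arms. The X median was 1.58 times the background median in replicate 1 and 2.22 times in replicate 2 (1.90 ± 0.453, SD, n = 2). In the replicate-set list the X median was 2499 bp against 2057 bp.

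Short gaps were a smaller share of all gaps. On X 181 of 1036 gaps (17.5%) in replicate 1 were under 1 kb, against 23.0% on the background arms. In replicate 2 it was 138 of 862 (16.0%), against 22.5%. The X mean of 16.7% ± 1.03 and the background mean of 22.7% ± 0.380 (SD, n = 2 each) lay farther apart than either spread. A short gap may also divide a single domain, and the lists cannot separate this from distinct neighbours.

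Joined across gaps under 1 kb, the X clusters of replicate 1 gave 142 runs of 2 or more clusters, of which 20 held 3 or more. Replicate 2 gave 118 runs, 19 with 3 or more. Of the X clusters, 31.1% stood in a run in replicate 1 and 29.7% in replicate 2, against 40.8% and 39.4% on the background arms. The longest run in replicate 1, 17013191 to 17041503 (28.3 kb), was made of 6 clusters covering 93.6% of it. The same stretch held 3 clusters in replicate 2, covering 66.3%.

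The second run, 11387426 to 11412888 (25.5 kb), held 7 clusters in replicate 1 and 3 in replicate 2, which covered 89.0% and 35.5% of it. The third was the single replicate 1 cluster at 9451616 to 9471920 (20.3 kb), split into 3 clusters in replicate 2 that covered 66.4%. The runs at 10608016 to 10628242 and 19392569 to 19412511, of 20.2 kb and 19.9 kb, were covered to 80.6% and 80.1% in replicate 2. Each of the 5 longest runs of replicate 1 was thus also present in replicate 2, with less of its length. They were ranked in replicate 1, so a lower value in replicate 2 is partly built into the choice.

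Broad clusters of 10 kb or more were scarce on X. Replicate 1 had 23 among its 1037 X clusters (2.22%), against 4.95% on the background arms. Replicate 2 had 7 among 863 (0.811%), against 4.10%. They held 8.96% and 3.63% of the summed width of the X clusters, against 18.3% and 15.4% on the background. The widest was 20.3 kb in replicate 1 and 14.9 kb in replicate 2.

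No broad X cluster lacked a counterpart. Of the 23 in replicate 1, 7 met 1 cluster of replicate 2, 11 met 2 and 5 met 3 or more, and between 55.5% and 100% of their length (median 80.8%) lay in replicate 2 clusters. Of the 7 in replicate 2, 4 met 1 cluster of replicate 1 and 3 met 2, and at least 91.9% of their length lay in them. The cluster 14140951 to 14154230, 13.3 kb wide in replicate 1 and 13.0 kb in replicate 2, had nearly the same edges in both. So did 10608016 to 10620955, of 12.9 kb and 13.1 kb, and 10264645 to 10277268, of 12.6 kb and 12.3 kb.

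The widest replicate-set domains on X that met both replicates differed in how whole they were. The domain 6675284 to 6697124 (21.8 kb) was covered to 88.0% by 3 clusters in replicate 1 and to 85.1% by 2 in replicate 2. The domain 1862680 to 1883198 (20.5 kb), in the most covered window, was covered to 90.8% by 2 clusters and to 94.5% by 4. In these the replicates differed by a few points only.

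The domain 9450878 to 9471732 (20.9 kb) was covered to 96.5% by a single cluster in replicate 1 and to 68.1% by 3 clusters in replicate 2. The domain 2547550 to 2567926 (20.4 kb) was made of 4 clusters in each replicate, over 82.5% and 71.1%. The widest of all, 11387332 to 11428932 (41.6 kb), fell into 10 pieces in replicate 1, none above 6.54 kb, and 5 in replicate 2. These covered 78.7% of it in replicate 1 and 45.1% in replicate 2, the largest difference among these 5 domains. The replicate-set list rests on these same replicates, so its domains are no separate evidence.

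Among X clusters that met 1-to-1, the strongest were not all broad. Scores are the authors' own values per cluster with no stated unit. The highest mean score among clusters that met 1-to-1 belonged to 17688507 to 17690316, 1810 bp wide, with 1.43 in replicate 1 and 1.40 in replicate 2 (1.41 ± 0.02, SD, n = 2). Next was the broad cluster at 14140951, with 1.38 and 1.33 (1.35 ± 0.04). The clusters at 10835841 to 10841793 and 10264645 to 10277268 scored 1.18 in replicate 1 and 1.42 and 1.41 in replicate 2. The fifth, 9904104 to 9908820, scored 1.21 and 1.33. Clusters that did not meet 1-to-1 are outside this ranking, among them the highest-scoring X cluster of replicate 2 (1.46). Another is 16550170 to 16565067 of replicate 2 (14.9 kb, score 1.29), which met 2 of replicate 1.

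The replicates put their X clusters mostly in the same windows but not in the same amount. Across the 100 kb windows of X Pearson's r between the replicates was 0.922 and Spearman's rho 0.917, against 0.985 and 0.983 across those of the background arms. Replicate 1 covered more in 143 X windows and replicate 2 in 41, with 20 tied at 0, so replicate 1 was higher in 70.1% of them. On the background arms this share was 47.1%. The median difference was 2.66 points on X and 0 on the background.

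**Figure D2:**
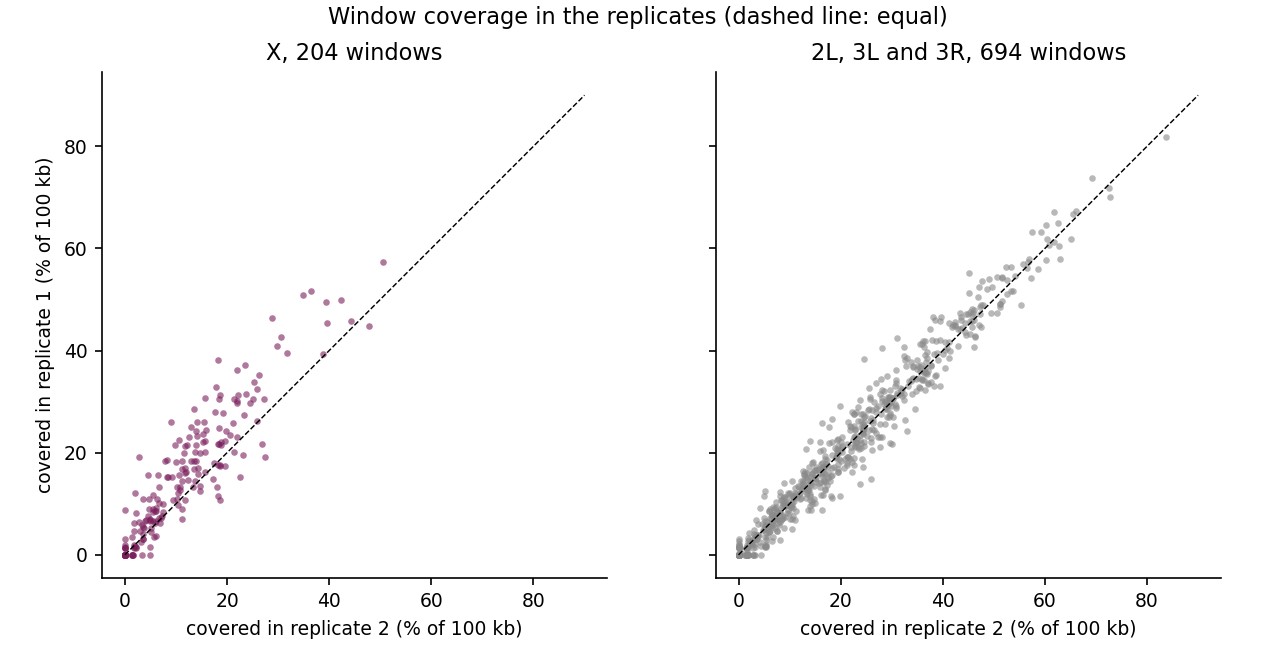
Coverage of 100 kb windows (%) in replicate 1 (vertical) against replicate 2 (horizontal), with X at left and the background arms 2L, 3L and 3R at right. Each point is a window and the dashed line marks equal coverage. The X points lie mostly above the line, in 143 windows, and the background points lie on both sides.

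The covered length on X was 1.31 times as large in replicate 1 as in replicate 2. On 2L, 3L and 3R the same ratio was 1.02, 1.01 and 0.999. Every 1 Mb block of X had more in replicate 1 (21 of 21, the last of them shorter), against 57.4% of the 68 background blocks. The ratio per block ran from 1.04 to 1.92 on X with a median of 1.34, and from 0.882 to 1.18 on the background with a median of 1.01.

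The surplus of replicate 1 differed between places. As a ratio it was largest at 7000001 to 8000000 (1.92), where replicate 1 covered 11.4% and replicate 2 covered 5.93%, with 38 and 19 clusters. Next came 18000001 to 19000000 (1.61) and 3000001 to 4000000 (1.56). In points of coverage the surplus was larger at 11000001 to 12000000, where the replicates covered 24.5% and 17.1%. The ratio was smallest at 1000001 to 2000000, the block that holds the 2 most covered windows, where the replicates covered 21.8% and 20.99% with 64 and 67 clusters.

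Single windows showed the same one-sidedness. A difference of more than 10 points was found in 27 X windows, all with replicate 1 higher, against 0.576% of the background windows with replicate 1 higher and 0.144% with replicate 2 higher. The largest stood at 2100001 to 2200000, with 38.1% in replicate 1 and 18.3% in replicate 2, and with 14 and 7 clusters. At 11700001 to 11800000 the values were 46.3% and 28.8%, and in the last window, which begins at 20300001, they were 50.8% and 34.8%.

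At 5000001 to 5100000 replicate 1 covered 26.1% with 15 clusters and replicate 2 covered 9.10% with 5, while the replicate-set list covered 71.8% with 18. At 7900001 to 8000000 replicate 1 covered 19.1% with 7 clusters and replicate 2 covered 2.68% with 1. In the other direction differences were smaller. The largest was 8.25 points in favour of replicate 2, at 1200001 to 1300000 (19.2% in replicate 1 and 27.5% in replicate 2), followed by 17900001 to 18000000 (10.7% and 18.6%) and 5100001 to 5200000 (15.3% and 22.5%). This last window lies directly beside the one, from 5000001, in which replicate 1 was far higher.

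Cluster by cluster, 649 of the 1037 X clusters of replicate 1 (62.6%, exact 95% binomial interval 59.6% to 65.5%) met a cluster of replicate 2 by at least 1 bp. On the background arms 84.3% did. In the other direction 688 of 863 (79.7%, 76.9% to 82.4%) met a cluster of replicate 1, against 82.2% on the background. The intervals cover counting error only. On X 388 clusters of replicate 1 had no counterpart, and 175 of replicate 2 had none. Replicate 1 lists more X clusters than replicate 2, so its lower share is partly built into the list sizes. With the upper 50% of each list by score the X shares were closer to each other, at 63.4% for replicate 1 and 67.4% for replicate 2. The cut is the median score of the whole list. X scores run higher, so X kept a larger share of its clusters than the background arms did.

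The share of replicate 1 clusters found in replicate 2 ran from 46.2% to 76.4% between the 1 Mb blocks of X, with a median of 62.5%. It was lowest at 18000001 to 19000000, and next lowest at 7000001 to 8000000 (47.4%), where all 19 clusters of replicate 2 were found in replicate 1. It was highest at 19000001 to 20000000. Even this highest block stood below the 84.3% of the background arms.

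More of the length found only in replicate 1 lay in clusters with no counterpart than in shared ones. Of the 3.16 Mb it covered on X, 58.9% lay in clusters of both replicates and 23.5% in clusters that met none of replicate 2. The other 17.6% lay in clusters that met replicate 2, at their edges or in gaps between the replicate 2 clusters they met. In the order both, edges or gaps, and none, the X shares were thus 58.9%, 17.6% and 23.5%. On the background arms these shares were 82.8%, 10.2% and 7.07%. In replicate 2 the X shares were 77.2%, 10.3% and 12.5%, against 83.5%, 8.12% and 8.33% on the background. The length in both replicates was 50.2% of the length in either on X and 71.2% on the background.

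**Figure D3:**
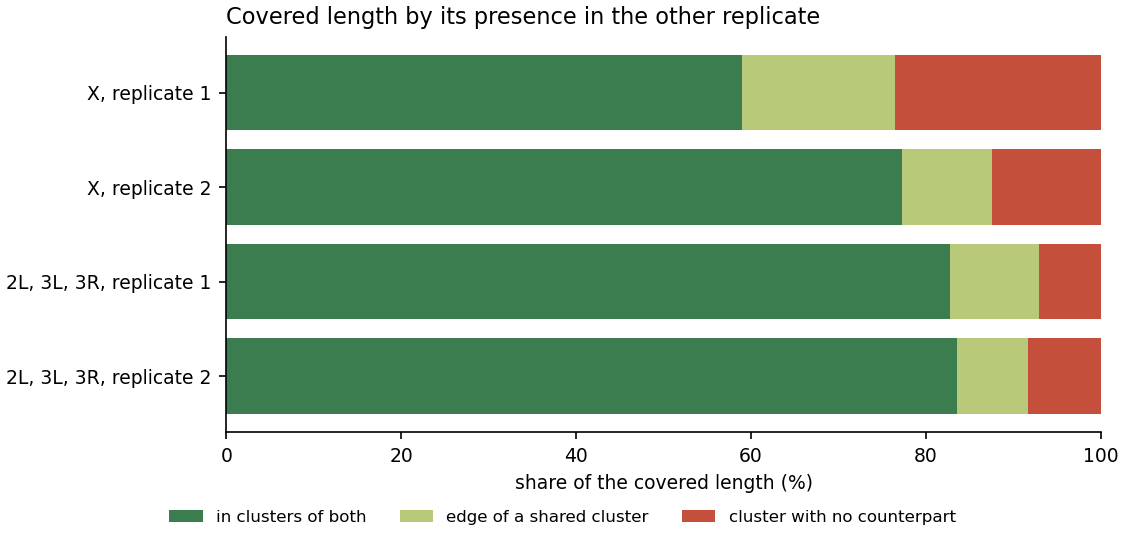
Share of the covered length (%) that lay in clusters of both replicates, in the rest of a cluster that met the other replicate, or in a cluster with no counterpart, for X and for the background arms 2L, 3L and 3R. The class drawn as edge also holds gaps inside a shared cluster that the other replicate left uncovered. The part with no counterpart was largest on X in replicate 1, at 23.5%.

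Shared X clusters were broader and scored higher than the others. In replicate 1 their median width was 2972 bp and those without a counterpart measured 1701 bp, with median scores of 0.82 and 0.72. Those of replicate 2 measured 2401.5 bp with and 1578 bp without a counterpart, and scored 0.85 and 0.79. The widest X cluster of replicate 1 with no counterpart, 7933911 to 7940989 (7.08 kb, score 0.83), lay 53.6 kb from any cluster of replicate 2, in a window already named. It lay whole in a cluster of the replicate-set list.

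The next, 17493973 to 17499369 (5.40 kb) and 7788894 to 7794003 (5.11 kb), lay 1.46 kb and 2.26 kb from a cluster of replicate 2. These 3 were the only X clusters of 5 kb or more without a counterpart in replicate 1, and replicate 2 had none. The background arms had none in either replicate. In replicate 2 the widest without a counterpart were 17384265 to 17388313 (4.05 kb), 2266016 to 2269464 (3.45 kb) and 13146968 to 13150274 (3.31 kb).

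At like width, too, the replicate 1 clusters of X and of the background arms differed in the share with a counterpart. Among clusters from 1.5 to under 2 kb, 39.6% (33.5% to 46.0%) on X were found in replicate 2, against 64.9% (61.3% to 68.4%) on the background. From 2 to under 3 kb it was 63.1% (57.0% to 69.0%) against 88.7% (86.4% to 90.8%). From 3 to under 5 kb it was 89.1% (84.0% to 93.0%) against 97.9% (96.8% to 98.8%). The intervals do not overlap in these 3 classes, but they cover counting error only. Clusters of a library are not replicates and the classes were set after the data were seen, so this is no test. Replicate 2 also held fewer clusters to meet on X, at 42.3 per Mb against 56.9 on the background arms. It covered 11.8% of X against 20.6% of the background. How much of the difference in sharing goes with this was not tested.

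Below 1.5 kb the shares were 35.8% (28.7% to 43.2%) on X and 46.9% (42.0% to 51.8%) on the background, with intervals that overlap. At 5 kb and above, 140 of 143 X clusters had a counterpart, and all 824 on the background. Among narrow clusters of replicate 2 the X share was the higher value. Below 1.5 kb it was 57.0% (48.9% to 64.8%) on X against 43.6% (39.2% to 48.2%), and from 1.5 to under 2 kb 68.9% (62.8% to 74.6%) against 60.1% (56.7% to 63.5%). Only below 1.5 kb were the intervals of X and background separate in replicate 2. In the wider classes they overlapped, and here too they cover counting error only.

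**Figure D4:**
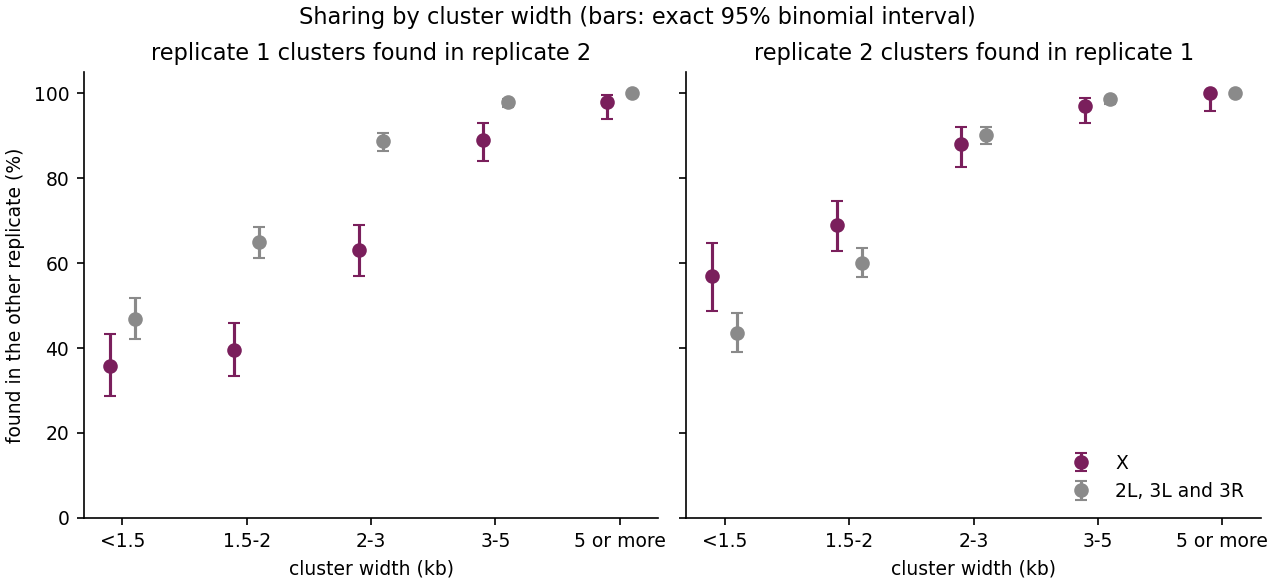
Share of clusters (%) found in the other replicate by cluster width (kb), for X and for the background arms 2L, 3L and 3R. Points are shares, bars exact 95% binomial intervals, which cover counting error only and are no test. In replicate 1 (left) X lies below the background, for example at 63.1% against 88.7% from 2 to 3 kb, and in replicate 2 (right) the X value lies above it below 2 kb, with separate intervals only below 1.5 kb.

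Scores on X were higher than on the background arms, at the low end above all. The median score was 0.77 in replicate 1 and 0.83 in replicate 2 on X (0.80 ± 0.04, SD, n = 2), against 0.70 and 0.69 (0.70 ± 0.01). The 5th percentile was 0.57 and 0.63 on X, against 0.48 and 0.47. At the 90th percentile the order differed between replicates, with 1.01 and 1.06 on X against 1.05 and 1.02. The highest X scores, 1.43 and 1.46, stayed below the highest of the background, 1.65 and 1.59.

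The difference held at like width. From 1.5 to under 2 kb the median X score was 0.68 in replicate 1 and 0.75 in replicate 2, against 0.56 in both on the background. The 5th percentile in this class was 0.51 and 0.58 on X, against 0.42 and 0.41. At 5 kb and above the medians were 0.99 and 1.04 on X, against 0.96 and 0.95. The X medians lay farther above the background below 3 kb than at 5 kb and above, and farther in replicate 2, the replicate with fewer X clusters. Whether the authors' significance threshold asks for a higher score on X was not tested, since no depth is given.

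**Figure D5:**
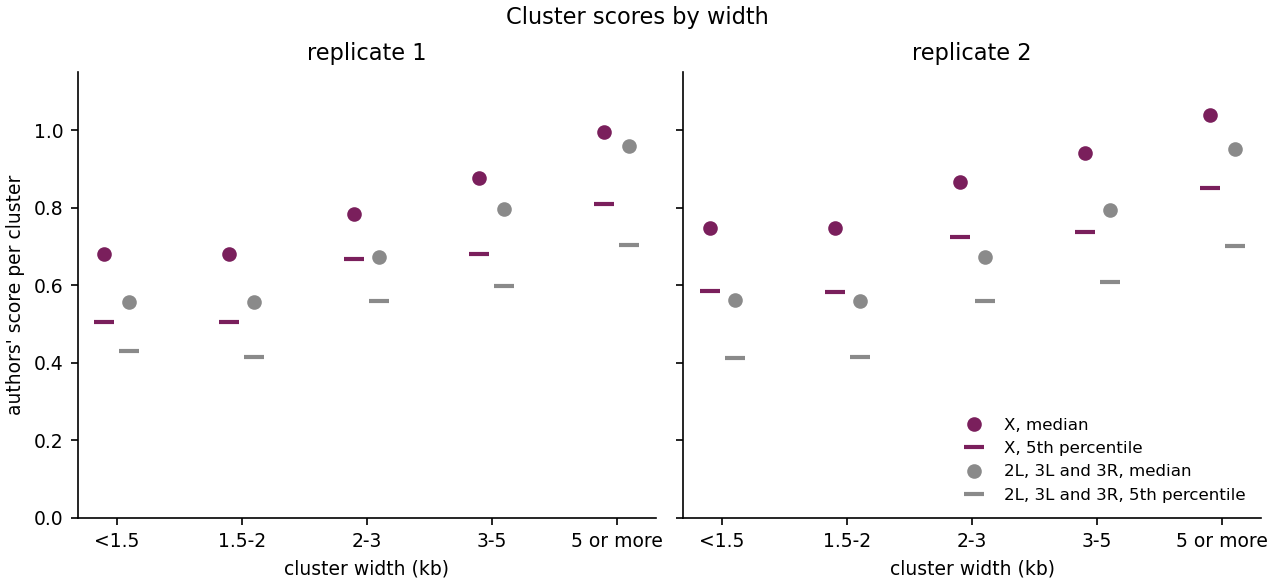
Authors' score per cluster by cluster width (kb) in replicate 1 and replicate 2, with medians as points and 5th percentiles as dashes, for X and for the background arms 2L, 3L and 3R. Below 2 kb the X medians lie near 0.68 in replicate 1 and 0.75 in replicate 2, above the background medians of 0.56.

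Sharing on X also varied with the score. In replicate 1 the share found in replicate 2 was 38.8% below a score of 0.6, 53.0% from 0.7 to under 0.8, and 93.5% at 0.9 and above. On the background arms the shares in the same classes were 66.2%, 92.5% and 100%. At like score the X share was the smaller in each of these classes, and the X clusters were also narrower, with a median of 2039.5 bp against 3248 bp from 0.7 to under 0.8. In replicate 2 the X shares were 66.7%, 73.4% and 87.4%, against 65.0%, 90.1% and 99.6%. Here too, replicate 2 listed fewer clusters per Mb on X than on the background arms, so X clusters of replicate 1 had fewer to meet.

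In 468 X pairs the clusters met 1-to-1. Pearson's r between their scores was 0.634 and Spearman's rho 0.567, against 0.882 and 0.847 over 2408 background pairs, as a description across clusters. Replicate 2 scored higher in 258 of the X pairs (55.1%), against 45.8% on the background. The mean difference, replicate 1 minus replicate 2, was -0.02 ± 0.14 on X (SD over pairs) and 0.01 ± 0.11 on the background. The score medians of the X pairs were 0.82 in replicate 1 and 0.85 in replicate 2.

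The same pairs were wider in replicate 1 in 304 cases (65.0%), against 51.0% of the background pairs. Their median widths were 2810 bp in replicate 1 and 2321.5 bp in replicate 2. The edges lay farther apart, with a median offset of 383 bp at the start and 315 bp at the end, against 183 bp and 184 bp on the background arms. The X clusters of replicate 1 were thus wider in most pairs, while the score difference was small beside its spread over pairs.

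The replicate-set list added many X clusters of its own. Of its 1746 X clusters, 539 (30.9%, 28.7% to 33.1%) met both replicates, against 48.4% on the background arms. A further 310 (17.8%) met replicate 1 only and 135 (7.73%) met replicate 2 only, against 8.47% and 10.2%. The other 762 (43.6%, 41.3% to 46.0%) met neither, against 33.0%. Those that met both replicates measured 4965 bp at the median and held 58.8% of the summed width. Those that met neither measured 1356 bp and held 20.3% of it. The replicate-set list goes down to 1001 bp on X, and the replicates only to 1301 bp and 1304 bp. Its counts therefore include widths that the replicate lists do not hold.

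At the limit of the stretch, the last clusters inside ended at 20395313 in replicate 1 and 20392481 in replicate 2, with scores of 0.77 and 0.75. The first outside began at 20682267 in replicate 1 and 20685387 in replicate 2, with scores of 0.83 and 0.94. No member reached past the limit. The only gene table at hand follows genome release 6, and these coordinates follow release 5, so genes are not named.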

How the data were processed

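The submitters' processing notes name Bowtie 0.12.7, a short-read aligner, and the file headers give FlyBase release 5. For the cluster caller, its threshold and the making of the replicate-set list, the sources used here give nothing. Each deposited line holds a start, an end and the authors' score, whose unit is not stated in the deposited files; scores were therefore only compared by differences. The coordinates were used as deposited.

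Clusters were taken by midpoint. Covered length counts each base once, and sharing was judged against all clusters of the same arm in the other list. Intervals came from scipy 1.17.1, tables from pandas 2.3.3 and numpy 2.4.6, and plots from matplotlib 3.10.9, under Python 3.11.15; the counting was checked on simulated lists. Named regions are the 5 most covered windows, the 5 longest empty stretches, runs, widest domains and highest-scoring pairs, the windows with the largest differences (5 and 3) and the 3 widest unshared clusters per replicate. The width and score classes and the limits of 30%, 20%, 5% and 10 points were set after the data were seen, and any other region named was chosen after its values were seen. The members and lists were chosen with earlier results of these data known. Alternatives were a score cut, merging, a minimum width, other overlaps, windows and stretches, and leaving out each replicate. No fold, p-value or count of reads was computed.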

Additional observations from a re-analysis of the deposited data

How the results depend on the processing

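The lower coverage of X and the higher covered length in replicate 1 kept their direction in the settings run for them. So did the lower sharing of replicate 1 clusters than of replicate 2 clusters. Replicate 1 lists 1037 X clusters and replicate 2 lists 863, so this last order is partly built into the list sizes. With only the upper 50% of each list by score, the ratio of X to background coverage was 0.821, the share of replicate 2 clusters found in replicate 1 was 67.4%, the length ratio was 1.18, short gaps were 12.6% and the window r was 0.895. That cut is the median score of each whole list. The median X score was 0.77 in replicate 1 and 0.83 in replicate 2, against 0.70 and 0.69 on the background arms. X thus kept a larger share of its clusters, and these values compare unequal parts of X and background. With clusters of at least 2000 bp only, X coverage was 10.4%, the share of replicate 2 clusters found in replicate 1 was 85.7%, the length ratio was 1.41, short gaps were 10.98% and r was 0.902. Asking for 50% of both clusters lowered the shares found to 46.7% for replicate 1 and 56.1% for replicate 2. Gaps under 2 kb were 27.4% of all gaps. The window r was 0.920 with gaps merged, 0.926 on the whole X, 0.906 in 50 kb windows and 0.928 in 200 kb windows. Leaving out a replicate gave X coverage of 11.8% to 15.5%, a ratio of 0.575 to 0.746 and short gaps of 16.0% to 17.5%. The whole arms 2L, 3L and 3R gave a ratio of 0.670. No paired analysis was possible because the groups that share replicate numbers are ChIP and Input, and Input has no list among those analysed. Depth limits all values: with no read counts, a cluster missing from a list cannot be read as a place without H3K27me1.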

Other observations

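The X clusters listed only in the replicate set were spread widely. At least 1 of the 762 was found in 177 of the 100 kb windows, and the widest measured 6.62 kb. The window with the most length in such clusters was 14700001 to 14800000, where 14 of them covered 20.9%, beside 21.3% in clusters of replicate 1 and 11.8% in replicate 2. The next were 19300001 to 19400000, with 9 of them over 19.9%, and 9300001 to 9400000, with 11 over 18.9%. Of the 20 windows that were empty in both replicates, 8 held part of a replicate-set cluster.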
